A study of Mus musculus with 6 samples.

Results

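The cytosolic ribosomal protein genes, which encode the protein parts of the ribosome outside mitochondria, were followed in RNA sequencing of inflamed mouse prostates. Members were all gene symbols of the deposited count table that begin with Rpl or Rps and a digit, together with Rplp0, Rplp1, Rplp2 and Rpsa. Of 113 symbols that matched, 10 names of S6 kinases (Rps6k) and 14 pseudogene names ending in -ps were left out, which left 89 of 18697 genes. They comprised 54 large subunit names and 35 small subunit names. Of these, 88 passed a filter on low counts and entered the test of 13753 genes. The member that did not pass was Rpl39l, a copy of Rpl39 known from testis, with 0, 2 and 0 counts in VUF11207 libraries and 4, 0 and 0 counts in DMSO libraries.

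All mice had experimental autoimmune prostatitis, a model in which immunity against prostate antigens inflames the gland. The VUF11207 group received the small molecule of that name, which activates CXCR7, an atypical chemokine receptor encoded by Ackr3, by intraperitoneal injection at 5 mg per kg per day for 14 days. The DMSO group received the vehicle by the same route over the same time. Each group held 3 libraries of prostate RNA. Replicates are numbered 1 to 3 for VUF11207, while DMSO had numbered replicates 2 and 3 and 1 column whose name matched no single label. This column is here called the unnumbered library, since no label gives it a replicate number. The labels also list a DMSO replicate 1, which by elimination may be this library. The column header of the unnumbered library carries the same number as that of VUF11207 replicate 1. Whether this shared number pairs the libraries was not tested. Strain, age and genotype are not given in the labels, nor is the mouse behind each library, so a p-value here reflects only how these samples spread, which may be technical.

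Ribosomes are built from a large and a small subunit, each a core of ribosomal RNA carrying many different proteins, nearly all present in a single copy. Cells therefore make these proteins in matched amounts. Their mRNAs are short, very abundant and share a start signal, the terminal oligopyrimidine (TOP) motif, a cytosine followed by an unbroken run of cytosines and thymines. Through this motif the growth kinase complex mTORC1 and its partner Larp1 adjust translation of the whole set together. A high content of ribosomal protein mRNA is a feature of growing, secreting and activated immune cells.

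The sequences around the start sites of 7 members show the range of this motif. Each line holds the 25 bases before the RefSeq start and the first 15 after it, and capitals mark the longest run of cytosines and thymines that begins with a cytosine (the first, where 2 are equally long, as for Rps27l). Rpl13a, Rps2 and Rpl15 are the given marker genes of the set, Rps6 is the target of S6 kinase, and the last 3 lines allow Rps27 to be set against its copy Rps27l and show Rpl3l, the copy whose values stood apart.
Rpl13a: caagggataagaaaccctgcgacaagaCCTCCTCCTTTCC
Rps2: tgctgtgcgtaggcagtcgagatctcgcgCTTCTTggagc
Rpl15: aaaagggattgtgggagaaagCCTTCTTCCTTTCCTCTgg
Rps6: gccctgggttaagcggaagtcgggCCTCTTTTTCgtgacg
Rps27: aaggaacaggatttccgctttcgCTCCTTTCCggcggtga
Rps27l: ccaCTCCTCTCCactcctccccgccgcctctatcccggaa
Rpl3l: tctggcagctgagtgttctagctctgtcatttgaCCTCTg

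These windows lie at chr7:45128731-45128770 (minus strand), chr17:24720038-24720077 (plus), chr14:18270972-18271011 (minus), chr4:86857353-86857392 (minus), chr3:90213634-90213673 (minus), chr9:66946061-66946100 (plus) and chr17:24727801-24727840 (plus) of GRCm38.p6, in the order of the lines. RefSeq promoter entries were found for 68 members. A run of at least 7 pyrimidines that begins with a cytosine lay in this window in 37 of the 68 members (54.4%), and in 3317 of 14524 other genes (22.8%). The letters CCGGAAG, read on both strands from 250 bases before to 50 bases after the start, occurred in 26 members (38.2%) and in 2190 other genes (15.1%). The letters TATAA, between 35 and 15 bases before the start, occurred in 5 members (7.35%) and in 602 other genes (4.14%). Such matches describe letters in a window and were not tested as sites.

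The libraries differed in what filled them before any question of treatment. Total counts ran from 23915765 to 29311438 in VUF11207 libraries and from 20308018 to 33368058 in DMSO libraries. Genes for seminal vesicle secretions took 29.5%, 6.37% and 7.998% of the counts in VUF11207 replicates 1 to 3, against 0.865%, 65.6% and 17.3% in the unnumbered DMSO library and DMSO replicates 2 and 3. DMSO replicate 2 and VUF11207 replicate 1 were the 2 libraries highest in these genes. DMSO replicate 2 had a TMM scaling factor of 0.426, against 1.01 to 1.33 in the other 5 libraries. Prostate secretory genes were measured in all libraries, so the labelled tissue was seen in each, and their summed level was 97825 to 208701 CPM with VUF11207 and 43418 to 149438 CPM with DMSO (CPM, read counts scaled by library total and TMM factor, used for all levels below).

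The part of each library held by ribosomal protein genes differed widely within both groups. They took 4.26%, 9.80% and 7.05% of all counts in VUF11207 replicates 1 to 3, against 13.1% in the unnumbered DMSO library and 2.96% and 5.33% in DMSO replicates 2 and 3. The DMSO libraries thus held both the highest and the lowest share, and all VUF11207 values lay between them. Wilson 95% intervals of these shares reached at most 0.0147 percentage points to either side and cover counting error only. The mean share was 7.04 ± 2.77% with VUF11207 and 7.13 ± 5.31% with DMSO (SD, n = 3 each), a difference of -0.0957 percentage points that is smaller than either SD. No exact permutation test of 3 libraries against 3 can go below p = 0.1, so none was run. In bulk tissue, fewer cells of a type and less RNA per cell cannot be told apart.

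Much of the distance between libraries moved with the secretory genes. With 27 secretory genes left out of the total, the ribosomal protein share was 6.87%, 11.9% and 9.70% in VUF11207 replicates 1 to 3, against 14.0%, 10.3% and 7.25% in the unnumbered DMSO library and DMSO replicates 2 and 3. The highest library exceeded the lowest 4.44-fold in raw share and 2.04-fold after this step. DMSO replicate 2, the lowest in raw share, then stood below only the unnumbered DMSO library and VUF11207 replicate 2. The means were 9.49 ± 2.52% with VUF11207 and 10.5 ± 3.39% with DMSO (SD, n = 3 each), again closer than the spread within a group.

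**Figure D1:**
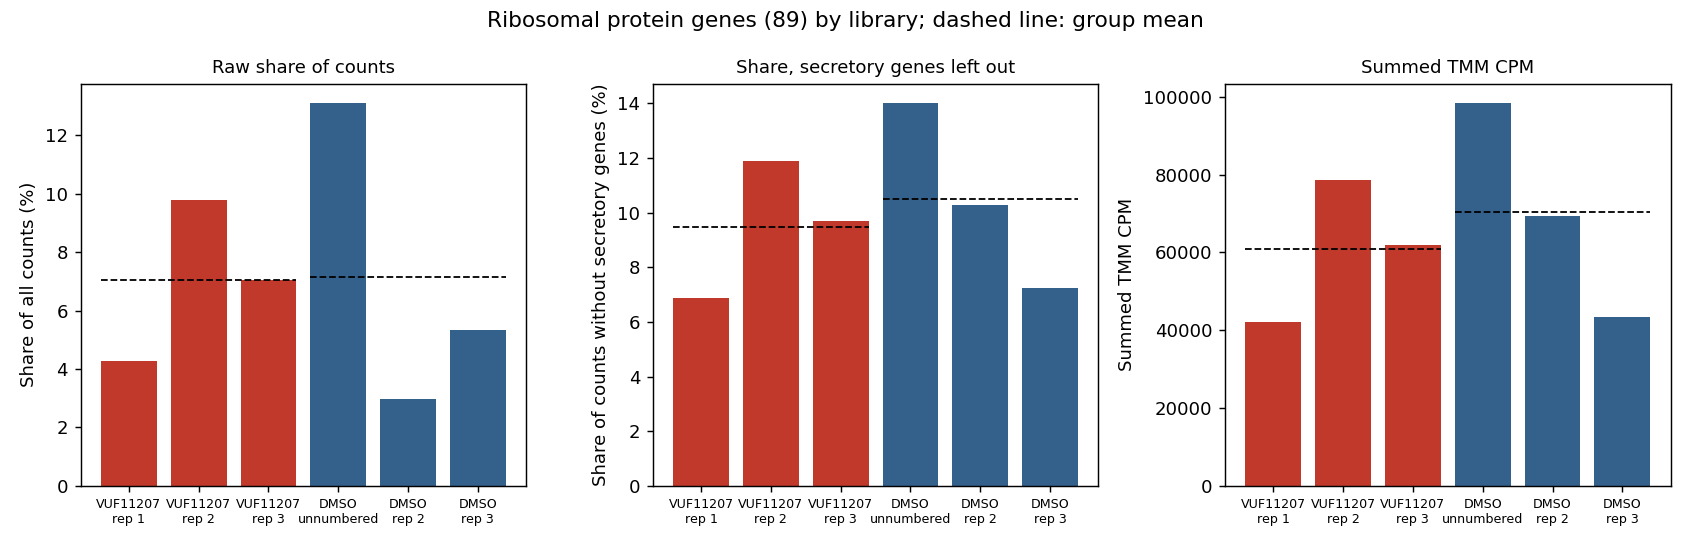
Share of all counts (left) and share after leaving out 27 secretory genes (middle) of the 89 ribosomal protein genes. The right panel sums TMM CPM over the 88 tested members. There is one bar per library, VUF11207 in red and DMSO in blue, with dashed lines at group means. Raw shares ran from 4.26% to 9.80% with VUF11207 and from 2.96% to 13.1% with DMSO, and the group means of each panel lie closer together than the bars within a group.

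On the TMM scale the 88 tested members summed to 42198, 78603 and 61896 CPM in VUF11207 replicates 1 to 3, against 98487, 69441 and 43341 CPM in the unnumbered DMSO library and DMSO replicates 2 and 3. VUF11207 replicate 1 and DMSO replicate 3 were nearly alike at the bottom, and the unnumbered DMSO library stood highest. The mean sum was 60899 ± 18223 CPM with VUF11207 and 70423 ± 27586 CPM with DMSO (SD, n = 3 each), a log2 ratio of -0.21. Without the unnumbered DMSO library this ratio was 0.11.

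Individual members followed the same order of libraries. Of the 88 tested, 70 were highest in the unnumbered DMSO library and 64 were lowest in VUF11207 replicate 1, with 21 more lowest in DMSO replicate 3. The number of members above their own mean of 6 libraries was 1, 83 and 51 in VUF11207 replicates 1 to 3, against 86, 57 and 1 in the unnumbered DMSO library and DMSO replicates 2 and 3. Each gene's own mean was taken off first, so differences in level between genes are left out here. The library means of the same members then accounted for 80.7% of the variation in log2 CPM of 87 members without Rpl3l. With Rpl3l the figure was 51.6%. Of the variation between these library means, 2.55% lay between the treatments.

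No ribosomal protein gene passed the test between VUF11207 and DMSO. By edgeR's quasi-likelihood test with Benjamini-Hochberg adjustment, 0 of 88 members were called higher and 0 lower at an adjusted p of 0.05, and the share called among all 13753 genes was 0% in each direction. At an unadjusted p of 0.05, 0 members and 196 genes (1.43%) passed in edgeR, and 0 members and 310 genes (2.25%) in DESeq2, where 4 genes (0.0291%), none a member, passed after adjustment. The groups overlapped for every member tested, while 766 of all genes (5.57%) had groups that did not overlap, 419 (3.05%) higher and 347 (2.52%) lower with VUF11207. The smallest unadjusted p among members was 0.330, and the smallest adjusted p was 0.99987.

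The fitted changes lay close together and mostly below 0, with wide errors. Log2 fold changes, VUF11207 over DMSO, ran from -0.54 for Rps14 to 0.15 for Rps27l, with a median of -0.18 over the members and -0.04 over all genes. Below 0 were 83 of the 88 members, against 55.3% of all genes, but the median turned to 0.15 without the unnumbered DMSO library and to 0.0487 without VUF11207 replicate 1. The members followed the libraries together, so these signs are not independent observations. Standard errors ran from 0.22 to 0.69 apart from Rpl3l. Over the members, the 95% intervals had a median lower limit of -1.28 and a median upper limit of 0.88. A 2-fold change in at least 1 direction lay inside the interval of 70 of the 88 members. The lower limits of 68 went below -1, so for those a 2-fold decrease was not excluded. These limits do not measure which changes the test could detect, in these or in the other members.

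**Figure D2:**
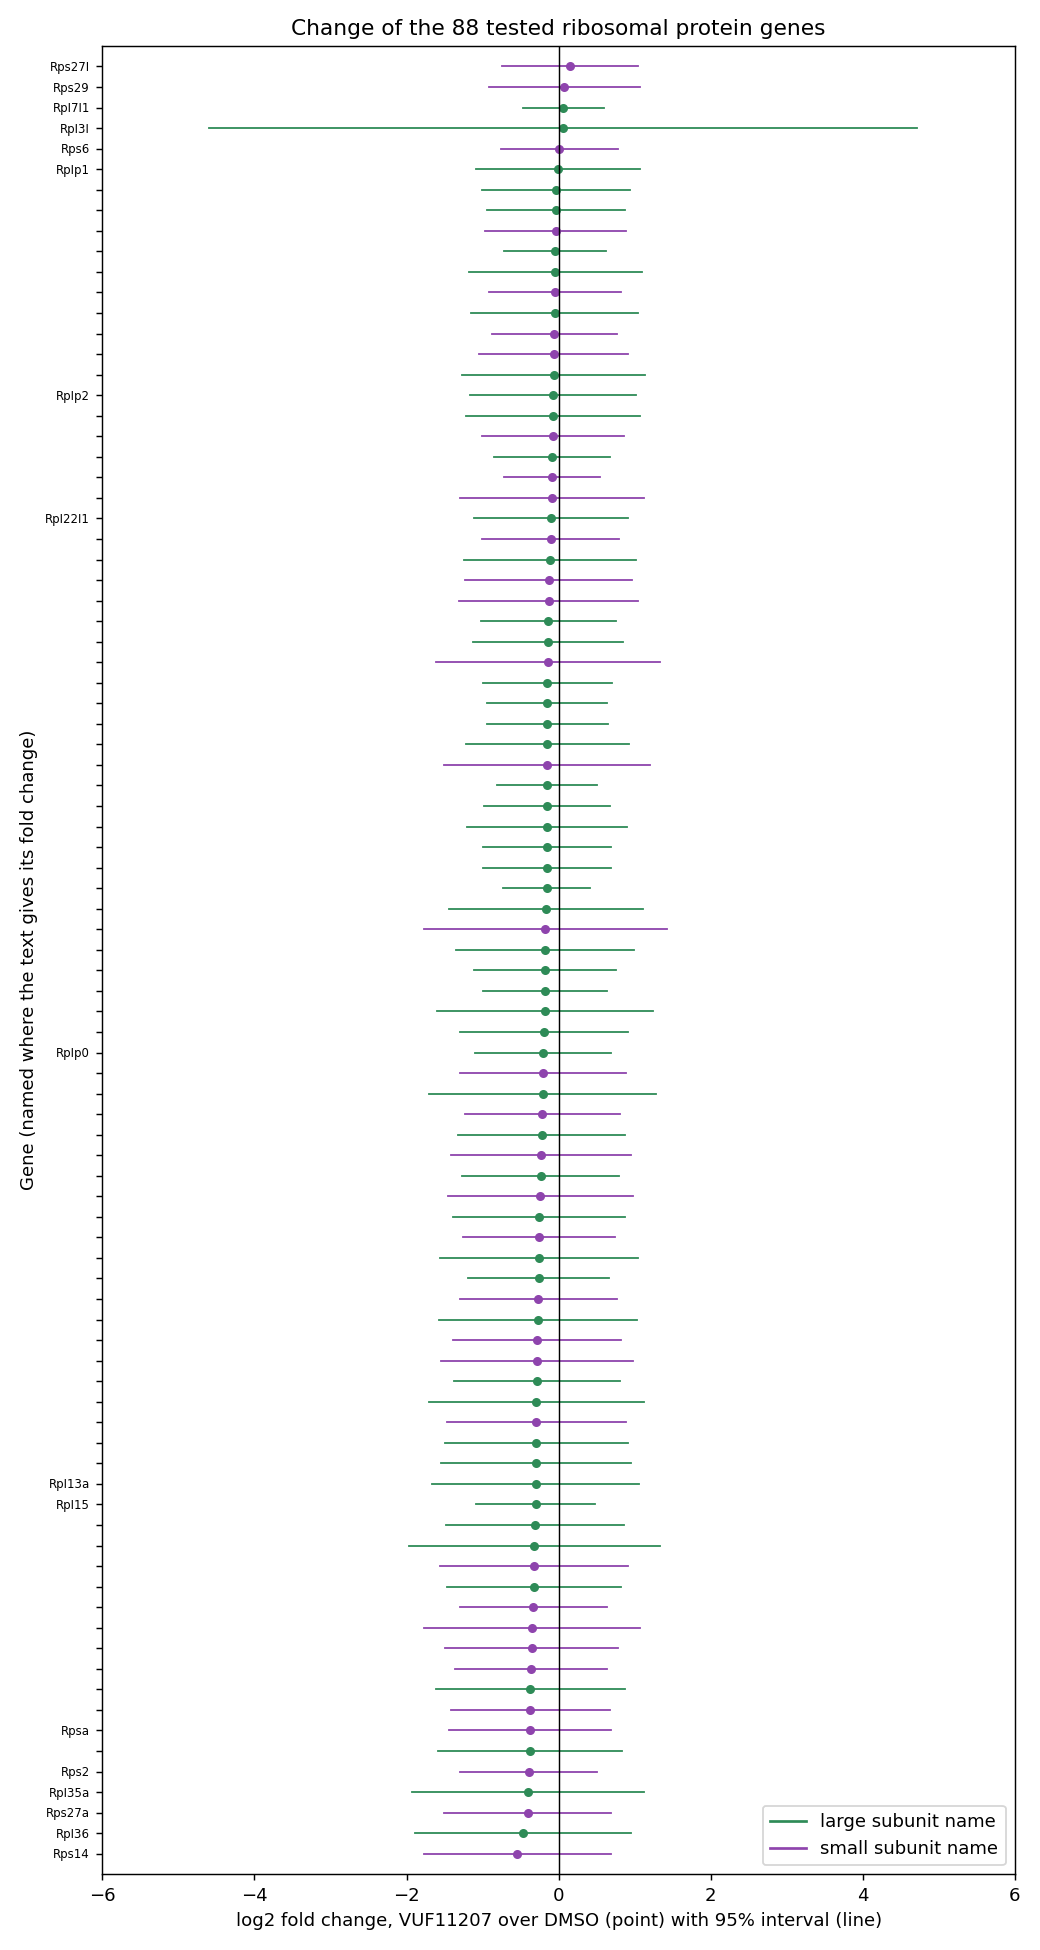
Log2 fold change, VUF11207 over DMSO, of the 88 tested ribosomal protein genes (points) with 95% intervals from edgeR (lines), large subunit names in green and small subunit names in purple. Names mark genes whose fold change the text gives. Points run from -0.54 (Rps14, bottom) to 0.15 (Rps27l, top), and the line at 0 lies inside every interval.

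For 62 members the lowest of the 6 libraries was a VUF11207 library and the highest a DMSO library, a pattern shown by 28.6% of all genes tested. For 22 members the VUF11207 values lay wholly inside the DMSO range, as in 33.3% of all genes. The pattern of the 62 rested on few libraries, since the lowest was mostly VUF11207 replicate 1 and the highest mostly the unnumbered DMSO library.

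The marker genes of the set were all lowest in DMSO replicate 3, not in VUF11207 replicate 1 as most members were, and their VUF11207 values lay inside the DMSO range, as in 22 members. Rpl13a, a large subunit protein also known in human cells for silencing inflammatory mRNAs once released from the ribosome, lies at chr7:45125558-45128761 on the minus strand (mm10, 8 exons). It was at 1156, 2483 and 1770 CPM in VUF11207 replicates 1 to 3, against 3604, 1934 and 1121 CPM in the unnumbered DMSO library and DMSO replicates 2 and 3. DMSO held its highest and its lowest value. The log2 fold change was -0.30 ± 0.57 (SE), and its sign changed without the unnumbered DMSO library.

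Rps2, a small subunit protein near the mRNA entry channel (chr17:24718116-24721929, plus strand, 6 exons), was at 561, 679 and 600 CPM with VUF11207, against 890, 1060 and 469 CPM with DMSO in the same order of libraries. The VUF11207 libraries lay near each other and inside the DMSO range. The log2 fold change of -0.39 ± 0.38 (SE) had the smallest unadjusted p of any member. Rpl15, a large subunit protein (chr14:18267823-18271391, minus strand, 3 exons), was at 319, 392.4 and 364 CPM with VUF11207, against 471, 575 and 280 CPM with DMSO. DMSO replicate 3 was the lowest library for both genes and DMSO replicate 2, not the unnumbered library, the highest. The log2 fold change of Rpl15 was -0.30 ± 0.33 (SE).

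The stalk proteins, which recruit elongation factors to the large subunit, differed between the group means by less than the spread within a group. Rplp1 was the most abundant member, with 1534, 2673 and 2419 CPM in VUF11207 libraries, against 2826, 2230 and 1604 CPM in DMSO libraries. Its log2 fold change was -0.0071 ± 0.45 (SE), and the means of the groups were 2209 ± 598 CPM with VUF11207 and 2220 ± 611 CPM with DMSO (SD, n = 3 each). Rplp2, its partner, was at 464, 979 and 741 CPM with VUF11207 and 1169, 627 and 492 CPM with DMSO, with a log2 fold change of -0.067 ± 0.46 (SE). Rplp0, the base of the stalk and a common reference gene for quantitative PCR, was at 1078, 1473 and 1349 CPM with VUF11207 and 1651, 1753 and 1083 CPM with DMSO, and its log2 fold change was -0.20 ± 0.37 (SE). The order of libraries differed: DMSO replicate 2 was highest for Rplp0, and the unnumbered DMSO library for Rplp1 and Rplp2.

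Among small subunit genes Rps14, Rps27a and Rpsa had some of the lowest fold changes. Rps14, the gene whose loss underlies the anaemia of the human 5q- syndrome, was at 1197, 2019 and 1428 CPM with VUF11207, against 3093, 2553 and 1109 CPM with DMSO. Its values overlapped, since DMSO replicate 3 was the lowest library of all, and the log2 fold change was -0.54 ± 0.52 (SE, 95% interval -1.77 to 0.69). Rps27a, made as a fusion with ubiquitin, was at 352, 712 and 513 CPM with VUF11207 and 1079, 603 and 411 CPM with DMSO, with a log2 fold change of -0.41 ± 0.46 (SE).

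Rpsa, also known as the laminin receptor, was at 937, 1586 and 1243 CPM with VUF11207 and 2217, 1686 and 982 CPM with DMSO. Its lowest library was VUF11207 replicate 1, with DMSO replicate 3 next, and the groups overlapped. The log2 fold change was -0.38 ± 0.45 (SE).

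Rps6 and Rps29 lay at the other end. Rps6, whose phosphorylation is read as a sign of mTORC1 activity (which RNA counts do not show), was at 769, 1038 and 909 CPM with VUF11207 and 941, 1056 and 704 CPM with DMSO. Its log2 fold change was 0.0083 ± 0.32 (SE), and its means were 906 ± 134 CPM with VUF11207 and 900.5 ± 180 CPM with DMSO (SD, n = 3 each). Rps29, a small zinc-binding protein, was at 434, 940 and 732 CPM with VUF11207 and 932, 580 and 490 CPM with DMSO. VUF11207 held both its highest and its lowest value, and its log2 fold change was 0.073 ± 0.42 (SE).

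Of the large subunit genes Rpl36 and Rpl35a varied most between libraries among those with the lowest fold changes. Rpl36 was at 302, 736 and 583 CPM with VUF11207, against 1370, 526 and 349 CPM with DMSO, a log2 fold change of -0.47 ± 0.60 (SE). Rpl35a, mutated in some human families with Diamond-Blackfan anaemia, was at 103, 331 and 194 CPM with VUF11207, against 527, 179 and 128 CPM with DMSO, a log2 fold change of -0.41 ± 0.64 (SE). For both genes the unnumbered DMSO library alone lay above the VUF11207 range, and without it the log2 fold change was 0.31 for Rpl36 and 0.45 for Rpl35a.

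Levels of the members differed widely between genes. Averaged over the 6 libraries, 21 of the 88 members were at 1000 CPM or more, 56 between 100 and 1000 CPM and 11 under 100 CPM, with a median of 762 CPM. Divided by the length of a principal transcript, the median level was 904 CPM per kilobase, and Rplp1 (4438), Rpl32 (3270) and Rps14 (3182 CPM per kilobase) were highest. Among the lowest were Rpl21 and Rpl29, at 13.7 and 33.9 CPM per kilobase, although both encode proteins of every ribosome. Stretches of 75 bases of Rpl21 occur in transcripts of 61 other annotated genes and those of Rpl29 in 45. Wide sharing was also found at higher levels, with 64 genes for Rpl7a and 50 for Rps2, at 850 and 711 CPM per kilobase. Rpl7l1, with 40 genes but 3.87% of its stretches shared, was low at 25.6 CPM per kilobase. The shared part was 47.5% for Rpl21 and 56.8% for Rpl29, against 77.4% for Rpl7a and 71.1% for Rps2. How reads that match several genes were counted is not given in the sources used here, and the part of sharing in these levels was not tested.

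This sharing touches most of the set. In the median member 48.2% of the 75-base stretches of its transcript also occur in transcripts of another gene, and in 43 members the figure is above 50%. Rpl34 was at 24.9, 57.7 and 34.0 CPM with VUF11207 and 80.5, 39.4 and 25.3 CPM with DMSO. The row of its pseudogene Rpl34-ps1 was at 111, 274 and 194 CPM with VUF11207 and 360, 204 and 131 CPM with DMSO, 4.44 to 5.71 times the level of Rpl34 in each library. Single-gene levels in this family are therefore uncertain. All 14 pseudogene rows together held 0.0116%, 0.0354% and 0.0232% of counts in VUF11207 libraries, against 0.0493%, 0.00892% and 0.0166% in DMSO libraries, and adding them left the difference in share at -0.0973 percentage points. Fau, a ribosomal protein made as a fusion, carries another name and lies outside the rule. It was at 500 to 934 CPM with VUF11207 and 533 to 1256 CPM with DMSO.

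The proportion between the subunits was nearly constant. Large subunit counts exceeded small subunit counts 1.47, 1.45 and 1.51 times in VUF11207 replicates 1 to 3, against 1.41, 1.44 and 1.47 times in the unnumbered DMSO library and DMSO replicates 2 and 3. The mean ratio was 1.48 ± 0.0333 with VUF11207 and 1.44 ± 0.0274 with DMSO (SD, n = 3 each). The difference of 0.0348 was slightly larger than either SD. The groups overlapped, and the whole range over libraries was 1.07-fold, while the summed level of the members ranged 2.33-fold.

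After the median of the members was taken off each library, most genes had little variation left. Rps16, Rpl23a and Rpl17 followed the set most closely, with SDs over the 6 libraries of 0.053, 0.054 and 0.058 on the log2 scale. Rps16 was at 502, 888 and 705 CPM with VUF11207 and 1186, 821 and 505 CPM with DMSO. Rpl3l and Rpl7l1 were farthest, with SDs of 3.48 and 0.62. Outside the rule, the gene rows whose log2 CPM had the highest Pearson correlation with the mean of the members over the 6 libraries were Rpl34-ps1 (0.996), Tst, a mitochondrial sulfur transferase (0.995), and Eif3f, a translation initiation factor subunit (0.995). These 6 points share the library differences described above.

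Paralogous copies, which resemble a core gene and of which some are known to be used by particular tissues, did not all keep to the pattern. Rpl3l, a copy of Rpl3 specific to heart and skeletal muscle, was at 29.3, 0.738 and 2.16 CPM in VUF11207 replicates 1 to 3, against 0.296, 0.211 and 30.2 CPM in the unnumbered DMSO library and DMSO replicates 2 and 3. It was high in a single library of each group and at 2.16 CPM or less in the others. The mean level of 20 skeletal muscle markers (log2 CPM centred on the 6 libraries) was 3.99, -2.52 and 0.25 in the VUF11207 libraries, against -3.73, -1.92 and 3.94 in the DMSO libraries, so the same libraries, VUF11207 replicate 1 and DMSO replicate 3, were highest for both. The log2 fold change of Rpl3l was 0.058 ± 1.94 (SE), and it was 5.35 without DMSO replicate 3 and -2.81 without VUF11207 replicate 1. Rpl3 itself was at 439, 674 and 553 CPM with VUF11207 and 680, 731 and 435 CPM with DMSO. It was lowest in the libraries where Rpl3l was highest, but these were also the lowest libraries for 64 and 21 members. With the median of the members taken off each library, Rpl3 was at 0.21 and 0.14 (log2) in that pair. It was then at 0.23 in DMSO replicate 2 and below 0 in the other libraries.

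Rps27l, a copy of Rps27 induced by p53, was at 180, 332 and 355 CPM with VUF11207 and 270, 337 and 172 CPM with DMSO. Rps27 was at 361, 906 and 652 CPM with VUF11207 and 1497, 522 and 422 CPM with DMSO. In the unnumbered DMSO library, where Rps27 was highest of all libraries, Rps27l was not. The log2 fold change of Rps27l, 0.15 ± 0.38 (SE), was the highest of the members, and it was -0.066 without DMSO replicate 3. The marked pyrimidine run of Rps27l in the sequence above, and the equally long one after it, lie upstream of its RefSeq start, while that of Rps27 spans the start.

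Rpl22l1, a copy of Rpl22, was at 59.7, 153 and 105 CPM with VUF11207 and 147, 125 and 67.4 CPM with DMSO, with a log2 fold change of -0.099 ± 0.43 (SE). Rpl22 was at 233, 587 and 387 CPM with VUF11207 and 722, 370 and 272 CPM with DMSO, so both had the same lowest library. Rpl7l1, a copy of Rpl7, was at 64.4, 60.02 and 80.2 CPM with VUF11207 and 52.8, 78.2 and 65.2 CPM with DMSO. It varied little, and it was lowest in the unnumbered DMSO library, where most members were highest. Its log2 fold change was 0.061 ± 0.22 (SE). Rpl36al was at 191, 274 and 262 CPM with VUF11207 and 261, 299.5 and 186 CPM with DMSO, while Rpl36a was at 208, 505.5 and 376 CPM with VUF11207 and 571, 331 and 228 CPM with DMSO.

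**Figure D3:**
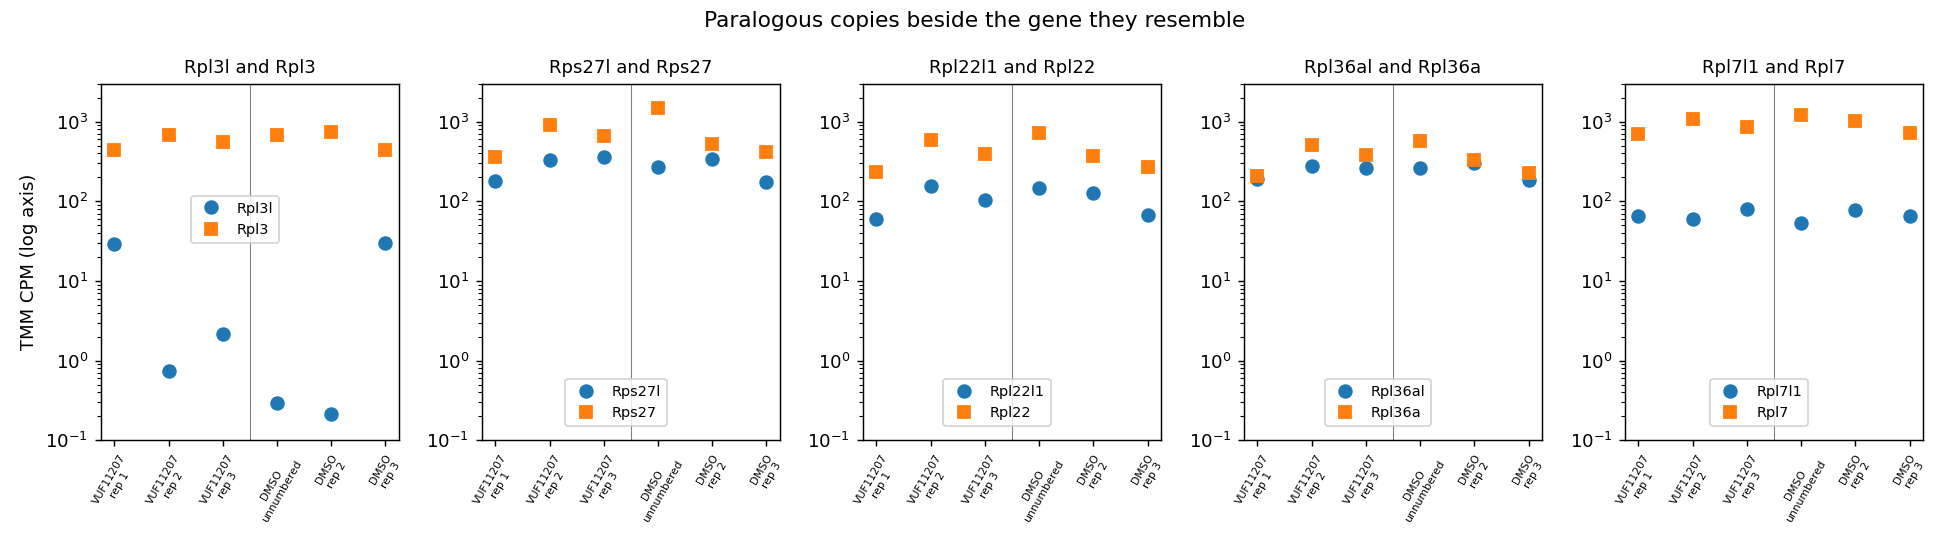
TMM CPM (log axis) of 5 paralogous copies (circles) and the genes they resemble (squares) in each library, VUF11207 on the left and DMSO on the right of each panel. Rpl3l is near 30 CPM in VUF11207 replicate 1 and DMSO replicate 3 and at most 2.16 CPM elsewhere, while Rpl3 stays between 435 and 731 CPM.

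Some names caught by the rule are not core ribosomal proteins. Rps19bp1 encodes a protein that binds Rps19, and it was at 22.3, 30.4 and 32.1 CPM with VUF11207 and 40.01, 24.6 and 25.3 CPM with DMSO. GENCODE lists 3 members, Rpl32l, Rpl6l and Rpl37rt, as processed pseudogenes, although their names do not end in -ps. Rpl6l was at 59.0 to 92.2 CPM with VUF11207 and 61.5 to 104 CPM with DMSO, and Rpl37rt at 35.7 to 86.8 CPM with VUF11207 and 41.4 to 109 CPM with DMSO. Among the 88 tested members Rps23rg1 and Rpl32l had the lowest levels, at 0.811 to 1.86 and 1.15 to 2.82 CPM with VUF11207 and 0.840 to 2.48 and 0.710 to 3.31 CPM with DMSO.

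Members also differed from one another by the length of their coding sequence, a split that was chosen after the values were seen. Over 83 members with a coding length, without Rpl3l (75 to 1257 nucleotides, median 453), the level of a gene in a library relative to its mean was set against its log2 length. Pearson's r across genes was 0.61, -0.59 and -0.27 in VUF11207 replicates 1 to 3, against -0.49, 0.49 and 0.50 in the unnumbered DMSO library and DMSO replicates 2 and 3. Genes of one family are not independent replicates, so no p is given. In VUF11207 replicate 1 and DMSO replicates 2 and 3 the genes with shorter coding sequences were the lower ones. In VUF11207 replicate 2 and the unnumbered DMSO library these genes were the higher ones. The length of the whole mRNA was not used.

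The median level of the 43 shorter genes less that of the 40 longer was -0.22, 0.24 and 0.04 (log2) in VUF11207 libraries, against 0.39, -0.31 and -0.12 in DMSO libraries. The same split of genes outside the family, 912 short and 5017 long, gave -0.16, 0.13 and 0.03 in VUF11207 libraries, against 0.11, -0.03 and -0.13 in DMSO libraries. The sign was the same in all 6 libraries, and the values were larger among the ribosomal protein genes except in DMSO replicate 3, most so in the unnumbered DMSO library and DMSO replicate 2. RNA quality is not given in the labels, and the part of fragment length or RNA quality in this pattern was not tested. Between treatments the median log2 fold change was -0.18 for the shorter and -0.18 for the longer genes.

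**Figure D4:**
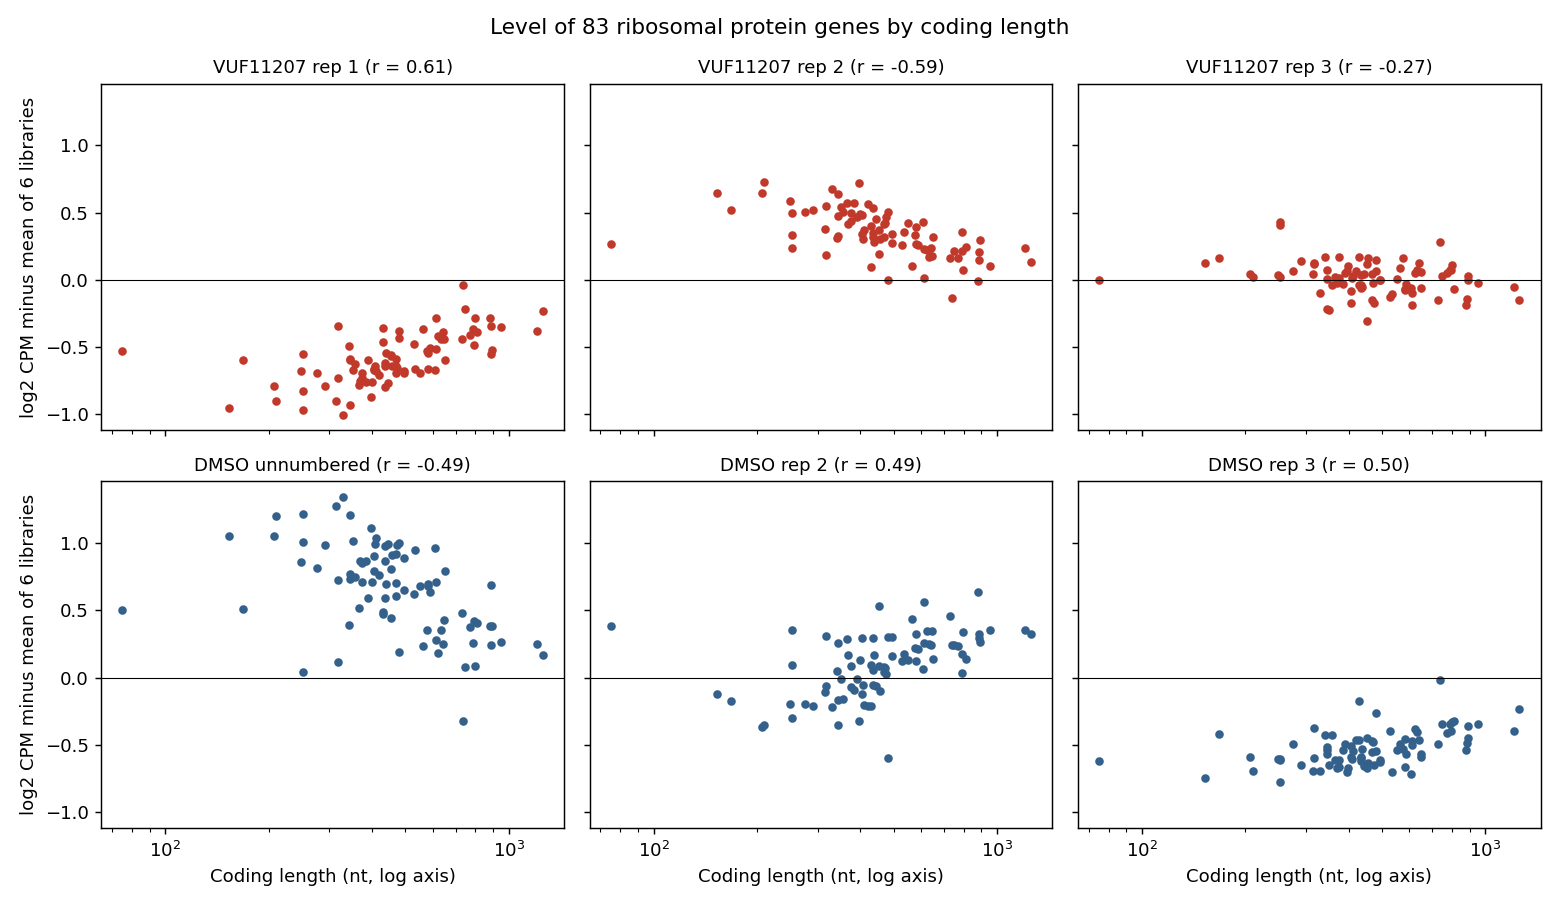
Level of 83 ribosomal protein genes in each library (log2 CPM minus the gene's mean over 6 libraries) by coding length in nucleotides (log axis), one point per gene, VUF11207 libraries above in red and DMSO libraries below in blue. The slope changes sign between libraries of the same group, from r = 0.61 in VUF11207 replicate 1 to -0.59 in replicate 2 and from -0.49 in the unnumbered DMSO library to 0.50 in DMSO replicate 3.

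Other genes with TOP mRNAs had the same order of libraries at the ends, with a smaller range. The list held 25 genes, of which 20 were tested, 1 positive and 19 negative in log2 fold change with a median of -0.12, and 0 passed. Its mean level (log2, centred) was -0.32, 0.19 and -0.05 in VUF11207 replicates 1 to 3, against 0.31, 0.18 and -0.31 in the unnumbered DMSO library and DMSO replicates 2 and 3. The ribosomal protein genes had mean levels of -0.54, 0.32 and 0.019 in VUF11207 libraries, against 0.62, 0.060 and -0.48 in DMSO libraries. Tpt1, a growth-related TOP gene, was at 2084, 4066 and 2730 CPM with VUF11207 and 5952, 4034 and 2218 CPM with DMSO. Rack1, a scaffold bound to the small subunit, was at 803, 1091 and 995 CPM with VUF11207 and 1475, 1746 and 762 CPM with DMSO.

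Genes that build or use ribosomes had flatter levels. The 42 ribosome biogenesis genes tested had 22 positive and 20 negative log2 fold changes, a median of 0.0068 and 0 passing, with mean levels between -0.033 and 0.061 in VUF11207 libraries and between -0.13 and 0.077 in DMSO libraries. Dkc1, the pseudouridine synthase of ribosomal RNA, was at 10.98, 8.35 and 9.87 CPM with VUF11207, against 15.9, 13.03 and 13.5 CPM with DMSO. Ubtf, a factor for RNA polymerase I, was at 83.3, 62.3 and 66.7 CPM with VUF11207, against 93.0, 106 and 87.6 CPM with DMSO. Rpf2, an assembly factor of the large subunit, went the other way, with 8.68, 11.9 and 11.5 CPM with VUF11207, against 6.66, 8.59 and 7.14 CPM with DMSO. The groups of these 3 genes did not overlap, Rpf2 by a narrow margin, yet the adjusted p was 0.99987 for each in edgeR's quasi-likelihood test, with 5.57% of all genes showing such a separation.

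The 27 initiation and elongation factors had 13 positive and 14 negative fold changes with a median of -0.011. The 19 tested genes of mTORC1 and MYC control had 5 positive and 14 negative with a median of -0.15, and 0 of either list passed. Rps6kb1, the S6 kinase, was at 32.1, 42.1 and 37.0 CPM with VUF11207 and 54.1, 47.2 and 41.7 CPM with DMSO. Eif4ebp1, a translation repressor under mTORC1, was at 119, 106 and 194 CPM with VUF11207 and 59.4, 121 and 109 CPM with DMSO. Rps6kb1 overlapped by a narrow margin, and Eif4ebp1 differed mainly by VUF11207 replicate 3 and the unnumbered DMSO library.

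The ribosomes of mitochondria have proteins of their own, and their genes give a comparison chosen after values were seen. Of 78 tested, 27 had positive and 51 negative log2 fold changes, with a median of -0.044 and 0 passing. Their mean level was -0.18, 0.082 and 0.036 in VUF11207 libraries, against 0.15, 0.15 and -0.24 in DMSO libraries, with the same lowest pair of libraries as the cytosolic set and a smaller range.

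**Figure D5:**
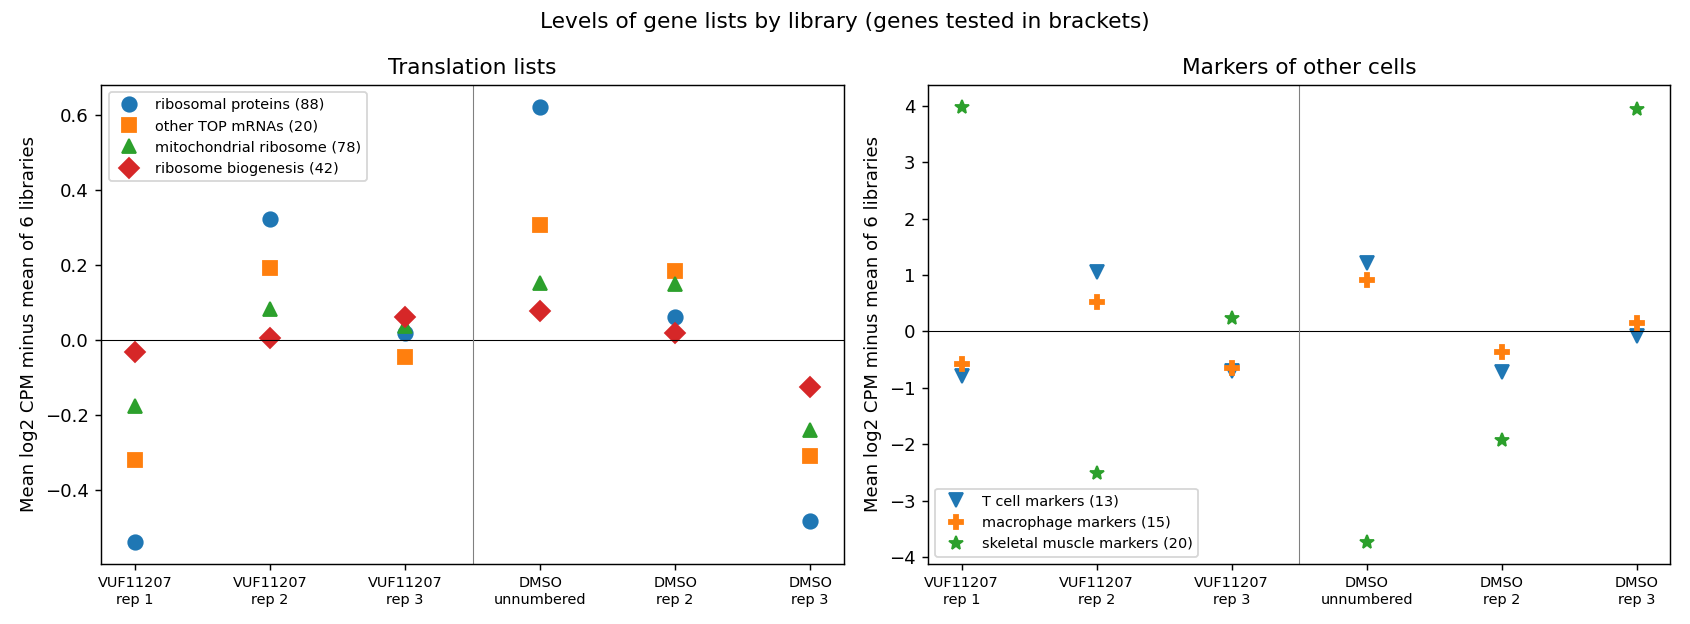
Mean log2 CPM, centred on the 6 libraries, of translation gene lists (left) and of markers of other cells (right) in each library, with the number of genes tested in brackets and VUF11207 libraries left of DMSO libraries. Ribosomal protein genes are at -0.54 and -0.48 in VUF11207 replicate 1 and DMSO replicate 3, where skeletal muscle markers are at 3.99 and 3.94.

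Markers of other cells also differed between libraries, some in the order of the members. Skeletal muscle markers, as given above, were highest in the pair of libraries where ribosomal protein genes were lowest, and their summed level ran from 818 to 8175 CPM with VUF11207 and from 520 to 7901 CPM with DMSO, with Myh2 at 0 counts in at least 1 library. T cell markers (13 of 18 tested) had mean levels of -0.78, 1.06 and -0.70 in VUF11207 libraries, against 1.22, -0.72 and -0.078 in DMSO libraries, and macrophage markers (15 of 15) had -0.58, 0.53 and -0.64 in VUF11207 libraries, against 0.91, -0.37 and 0.15 in DMSO libraries. Both were highest in VUF11207 replicate 2 and the unnumbered DMSO library, the pair with the highest ribosomal protein level. Macrophage markers were lowest in VUF11207 replicate 3 and above their mean in DMSO replicate 3, unlike the members. The summed levels were 25.9 to 97.0 CPM for T cell markers and 146 to 318 CPM for macrophage markers with VUF11207, against 33.8 to 86.7 CPM and 172 to 470 CPM with DMSO. Of the T cell markers 2, Cd5 among them, were at 0 counts in at least 1 library, and no macrophage marker was.

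B cell markers (11 of 14) had mean levels of -0.97, 1.41 and -0.40 in VUF11207 libraries, against 0.20, -1.17 and 0.94 in DMSO libraries. Smooth muscle markers (12 of 12) had 0.33, 1.23 and -0.98 in VUF11207 libraries, against 0.74, -0.73 and -0.59 in DMSO libraries. Red blood cell markers (6 of 7) had -1.45, 0.71 and -2.03 in VUF11207 libraries, against 2.44, -0.81 and 1.15 in DMSO libraries. B cell and red blood cell markers, too, were above their mean in DMSO replicate 3, where the members were below theirs, and smooth muscle markers were above their mean in VUF11207 replicate 1, where the members were lowest. B cell markers summed to 5.51 to 21.3 CPM with VUF11207 and 5.07 to 13.9 CPM with DMSO, smooth muscle markers to 4290 to 20074 CPM with VUF11207 and 4589 to 15948 CPM with DMSO, and red blood cell markers to 81.0 to 500 CPM with VUF11207 and 187 to 1843 CPM with DMSO. The part of any of these cells in the ribosomal protein levels was not tested.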

How the data were processed

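Prostate RNA of 6 libraries, 3 per group, was analysed. The authors deposited raw counts of reads, as whole numbers for each symbol. TRIzol extraction and the VAHTS Universal V6 kit were used, per the labels' protocols. The submitters' processing notes name fastp, HISAT2, HTSeq and build mm10. Not given in the sources used here were versions, annotation, strand setting and how multiply matching reads were handled. All 5 single-library files were identical to the table.

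Counts were scaled by TMM, filtered with filterByExpr and tested with edgeR 4.0.16 (quasi-likelihood, robust, two-sided, threshold 0.05 after adjustment over 13753 genes), with no covariate. Log2 CPM used a prior count of 2. DESeq2 1.42.0 and limma 3.58.1 voom, other scalings and filters, and leaving out libraries were alternatives. R 4.3.3 and Python 3.11.15 were used. On simulated counts with the dispersion of these libraries (13472 genes) the test recovered 1% of genes changed 2-fold and 18% of those changed 4-fold. The biological coefficient of variation was 51.4%.

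Members and lists were chosen with earlier results of these data known. Genes were named by rule: the given markers, the stalk genes and Rpsa, the 5 highest and 5 lowest fold changes, the 5 smallest p, extremes of level and of spread, paralogous copies, up to 3 genes per list by p, and the 3 rows most like the members. Rpl34, Rpl32, Rpl21, Rpl29, Rps19bp1, Rpl6l, Rpl37rt and Fau were added after their values were seen. Values of 1 gene chosen by this rule are not reported here. Gene positions, lengths and shared 75-base stretches come from GENCODE M21 (mm10), which held 88 members, and promoter sequences from RefSeq (GRCm38.p6).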

Additional observations from a re-analysis of the deposited data

How the results depend on the processing

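The number of ribosomal protein genes called was 0 under each of the 17 alternatives, and the number of all genes called was 3 with library totals alone and 4 with DESeq2. With library totals alone the all-gene median moved to 0.14, against -0.04 with TMM (log2). Members with a positive log2 fold change numbered 5, and 41 with library totals alone, 83 with a replicate block, 47 without the 2 libraries highest in seminal vesicle counts (an alternative chosen after seeing the data), 8 without the 50 most abundant other genes, and 2 to 65 when each library was left out in turn. The median log2 fold change of the members was 0.41 with the replicate block and -0.43 to 0.15 when each library was left out. The cause was not tested. The block used replicates 2 and 3 of both groups, 4 libraries, and so left out VUF11207 replicate 1 and the unnumbered DMSO library. A block over all libraries by header number, which would pair VUF11207 replicate 1 with the unnumbered DMSO library, was not fitted. Leaving out either of these alone gave medians of 0.0487 and 0.15. These 4 libraries were not fitted without the block, so its effect cannot be told from that of leaving libraries out. The deviations of same-numbered libraries correlated at 0.0628, so the numbers were not shown to pair samples. The difference in raw share ran from -2.18 to 2.89 percentage points when each library was left out.

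Signs of 17 named genes changed in 52 of 288 values. With the replicate block the log2 fold changes of opposite sign were 0.52 (Rpl13a), 0.47 (Rpl22l1), 0.76 (Rpl35a), 0.62 (Rpl36), -1.73 (Rpl3l), -0.0292 (Rpl7l1), 0.0446 (Rplp0), 0.44 (Rplp1), 0.63 (Rplp2), 0.0254 (Rps14), 0.29 (Rps27a) and 0.14 (Rpsa). With library totals alone they were 0.0112 (Rpl15), 0.16 (Rpl22l1), -0.19 (Rpl3l), 0.0615 (Rplp0), 0.19 (Rplp1) and 0.0611 (Rplp2). Without the 2 libraries highest in seminal vesicle counts they were 0.0352 (Rpl15), 0.29 (Rpl22l1), -3.38 (Rpl3l), 0.0712 (Rplp0), 0.23 (Rplp1) and 0.0781 (Rplp2). Rplp1 was also at 0.0044 with upper quartile scaling, 0.0100 with no count filter, 0.0068 without secretory genes and 0.0286 without the 50 most abundant genes, and Rps6 at -0.0053 with limma voom.

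Leaving out each library gave ranges that crossed 0 for Rpl13a (-0.61 to 0.24), Rpl22l1 (-0.46 to 0.22), Rpl35a (-0.90 to 0.45), Rpl36 (-0.80 to 0.31), Rpl3l (-2.81 to 5.35), Rpl7l1 (-0.071 to 0.22), Rplp1 (-0.19 to 0.23), Rplp2 (-0.34 to 0.38), Rps27a (-0.69 to 0.054), Rps27l (-0.066 to 0.43), Rps29 (-0.19 to 0.39) and Rps6 (-0.14 to 0.15). Rpl39l, Rpl32l, Rps23rg1 and, in most libraries, Rpl3l rest on few counts, and Rpl3l gave no value under the filter of at least 10 counts in every library.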
